A study of Mus musculus with 17 samples.

Results

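The genes that vary among mature oligodendrocytes and were read here, across cell types, clusters, animals and treatments, were Klk6, Hopx, Anln, Ptgds, Il33, Apod, Car2, St18 and Prr5l. They are 9 of the 26131 genes in the deposited count table, were chosen by symbol, and were read mainly in 73156 oligodendrocyte nuclei of the 284074 nuclei in all. Oligodendrocytes were the nuclei that carried the authors' oligodendrocyte label and lay in clusters 0, 2 or 15, the authors' clusters (resolution 0.4) in which over 50% of nuclei carried that label.

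Oligodendrocytes wrap axons in myelin. Once mature they do not form a single uniform population: nuclei that share the myelin programme differ in secreted proteins, lipid carriers, proteases and signalling genes, and the mix of these states shifts with brain region, age and injury. The genes here fall into several roles. Klk6 encodes a secreted serine protease, Il33 a nuclear cytokine that acts as an alarm signal when cells are damaged, Ptgds a secreted lipocalin that makes prostaglandin D, and Apod a second secreted lipocalin, which carries lipids. Anln encodes the actin-binding scaffold anillin, Car2 a cytosolic carbonic anhydrase, and Prr5l a protein that binds the kinase complex mTORC2. St18 encodes a zinc-finger transcription factor, and Hopx a small homeodomain protein that acts on transcription through partner proteins.

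RNA of single nuclei from the posterior brain was measured in a droplet-based assay that counts unique molecular identifiers (UMIs, one per captured RNA molecule). The 17 samples were female mice of 2.3 months, all homozygous for a knock-in of the human transferrin receptor (hTfR KI HOM), so that the controls carry the human receptor too. They had received 4 weekly intravenous doses of saline (4 samples), Malat1 ASO (4 samples, 2 mg per kg), anti-TfR:Malat1 (6 samples, 50 mg per kg) or OTV:Malat1 (3 samples, 50 mg per kg), over 24 days, with tissue taken 72 hours after the last dose. An ASO is an antisense oligonucleotide, here against the nuclear RNA Malat1; anti-TfR:Malat1 carries it on an antibody to the transferrin receptor, and OTV:Malat1 on a transport vehicle that binds the same receptor. The series was set up to compare knockdown by these carriers. Nothing in the labels says whether samples of a group were processed separately, so p-values measure the spread between these samples, each treated as 1 animal.

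Each animal gave 3610 to 5623 oligodendrocyte nuclei with 3875042 to 8896765 UMIs. The 6 oligodendrocyte markers (such as Mbp and Mog) summed to 11908 to 14085 CPM in saline, 11588 to 14111 with Malat1 ASO, 10666 to 12776 with anti-TfR:Malat1 and 11556 to 12246 with OTV:Malat1, against 74.7 to 116 CPM for 5 precursor markers over all animals. CPM, the UMIs of a gene scaled to a common total, was computed with Malat1 left out of that total, because Malat1's share of UMIs differed between treatments. Summed neuron markers reached 586 to 1483 CPM and choroid plexus markers 25.6 to 153 CPM in the same nuclei, and none of the markers was at 0 in any group. Barcodes were shared between animals for 1397 oligodendrocytes (1.91%). The metadata name 4 batches; OTV:Malat1 has no animal in batch 1.

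The bases just before the start of Klk6, Anln, Apod and Il33 are shown because these genes gave the clearest pattern within clusters: Klk6, Anln and Apod were seen in the same nuclei more often than expected, and Il33 less often with each of them. They come from the RefSeq promoter table (GRCm38.p6) and run 5′ to 3′ on the gene's strand, ending before the gene's start in both RefSeq and the GENCODE gene models, for Anln and Il33 short of the GENCODE start. Capitals mark SOX motifs (ACAAAG or ACAATG) and E-boxes (CANNTG) on either strand; no SOX match overlapped an E-box match.
Klk6: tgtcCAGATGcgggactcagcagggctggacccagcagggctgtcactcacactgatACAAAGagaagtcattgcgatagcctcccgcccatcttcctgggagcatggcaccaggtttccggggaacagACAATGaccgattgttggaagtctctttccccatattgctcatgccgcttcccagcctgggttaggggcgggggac
Anln: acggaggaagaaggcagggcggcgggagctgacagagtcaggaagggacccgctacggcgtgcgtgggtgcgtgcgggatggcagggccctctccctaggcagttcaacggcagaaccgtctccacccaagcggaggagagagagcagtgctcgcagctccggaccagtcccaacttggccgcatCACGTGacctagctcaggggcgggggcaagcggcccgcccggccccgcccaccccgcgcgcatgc
Apod: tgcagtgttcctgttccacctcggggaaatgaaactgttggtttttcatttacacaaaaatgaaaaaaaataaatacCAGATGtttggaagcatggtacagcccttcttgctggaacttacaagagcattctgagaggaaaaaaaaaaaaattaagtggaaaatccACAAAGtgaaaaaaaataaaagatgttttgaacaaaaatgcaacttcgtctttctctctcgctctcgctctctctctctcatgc
Il33: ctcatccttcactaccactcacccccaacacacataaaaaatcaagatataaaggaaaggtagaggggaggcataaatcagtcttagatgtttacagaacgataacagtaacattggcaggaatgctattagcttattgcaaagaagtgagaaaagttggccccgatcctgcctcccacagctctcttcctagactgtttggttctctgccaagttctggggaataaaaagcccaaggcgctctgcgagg
The Klk6 bases are chr7:43824294-43824498 on the plus strand, cut to 205 bases, and hold 2 SOX motifs and 1 E-box. The Anln bases are chr9:22389207-22389456 on the minus strand, with 24 CpG dinucleotides, 70.4% G or C, no SOX motif and 1 E-box. The Apod bases, chr16:31314809-31315058 on the minus strand, hold 1 SOX motif and 1 E-box at 36.4% G or C. The Il33 bases, chr19:29924863-29925112 on the plus strand, hold neither motif. Only the first entry of each gene is shown. A second Il33 entry (chr19:29945540-29945789) holds 2 E-boxes and no SOX motif. A second Klk6 entry (chr7:43825200-43825449) holds no SOX motif and 1 E-box. Among 32851 RefSeq promoters of 250 bases, 25.2% hold the SOX motif and 66.2% the E-box, so these matches are descriptions of the windows and not evidence of a bound site. The table matched 7 of the 9 genes; Car2 and St18 had no entry.

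Klk6, Anln, Il33, Car2, St18 and Prr5l had their highest mean level in oligodendrocytes, each above the class with the next highest mean in 17 of 17 animals. The mean level of Prr5l, the mTORC2-binding protein, was 3201 ± 160 CPM in oligodendrocytes (SD, n = 17, as for the other levels here) and 251 ± 141 CPM in vascular cells, the next class. St18 stood at 4449 ± 249 CPM against 260 ± 153 in vascular cells, and Anln at 498 ± 45.4 against 31.8 ± 24.8. Astrocytes came next for Car2 (165 ± 37.5 CPM against 1063 ± 111) and Il33 (107 ± 18.8 against 508 ± 40.3). Klk6, the protease, stood at 22.2 ± 8.59 CPM in oligodendrocytes and 5.33 ± 4.55 in microglia; microglia, vascular cells (4.63 ± 6.96) and astrocytes (3.02 ± 2.25) lay within their spread of each other.

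Ptgds, Apod and Hopx had their highest mean level elsewhere. Ptgds, the prostaglandin D synthase, was 3648 ± 1249 CPM in vascular cells and 1782 ± 565 in oligodendrocytes, lower in oligodendrocytes in 17 of 17 animals. Perivascular macrophages followed at 1220 ± 517 CPM, then microglia at 743 ± 250. Apod, the lipid carrier, was 904 ± 235 CPM in vascular cells and 631 ± 122 in oligodendrocytes, and these classes overlapped: oligodendrocytes were higher in 3 of 17 animals. Hopx was 24.5 ± 8.04 CPM in astrocytes and 4.67 ± 1.68 in oligodendrocytes, lower in oligodendrocytes in every animal, so the data go against Hopx as a gene led by oligodendrocytes in this tissue. All 9 genes were higher in oligodendrocytes than in neurons in 17 of 17 animals, by 3.55 times for Hopx to 67.9 times for Prr5l. The levels by class keep the authors' doublets in.

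The share of nuclei with at least 1 UMI depends on depth, with a median of 1263 UMIs in oligodendrocytes and 4845 in neurons. With each nucleus thinned to 500 UMIs, St18 was seen in 82.4% ± 1.76 of oligodendrocytes and 3.85% ± 0.664 of neurons (unthinned 95.9% and 14.8%). Prr5l was seen in 73.1% ± 2.29 against 1.80% ± 0.260 (unthinned 92.7% and 7.35%). Without the authors' doublets, thinned St18 was at 82.3% against 1.72%, and Prr5l at 73.1% against 0.163%. In vascular cells, leaving out doublets took thinned St18 from 4.46% to 1.98% and Prr5l from 5.97% to 3.92%. Both marked most oligodendrocytes. Anln (18.5% against 0.403%), Il33 (20.5% against 0.479%), Apod (23.5% against 1.71%) and Car2 (38.2% against 1.53%) were seen in a minority of thinned oligodendrocyte nuclei, and far fewer neurons. Without the authors' doublets these thinned neuron shares were 0.145%, 0.165%, 1.54% and 0.927%, in the same order. Unthinned, these 4 stood at 37.6%, 39.3%, 46.8% and 66.8% of oligodendrocytes and 3.42%, 3.74%, 13.3% and 11.5% of neurons. Klk6 was seen in 0.828% ± 0.309 of thinned oligodendrocytes and 0.0643% of neurons (unthinned 2.50% and 0.555%). Hopx was seen in 0.205% against 0.0701% thinned, and in 0.592% against 0.640% unthinned, where the neurons are the deeper nuclei. Ptgds was seen in 48.5% ± 9.14 of thinned oligodendrocytes, 30.1% ± 8.32 of microglia and 8.51% ± 2.76 of neurons (unthinned 73.2%, 49.0% and 49.8%). In vascular cells, the class with its highest mean level, the thinned share was 45.1% ± 6.59 (unthinned 65.0%), no higher than in oligodendrocytes. Microglia had a median of 989 UMIs. Whether the Ptgds share in microglia is expression or free RNA was not tested.

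The 3 oligodendrocyte clusters carried the 9 genes at different levels. Cluster 0 held 37325 nuclei (median 1457 UMIs), cluster 2 held 29228 (median 945) and cluster 15 held 6603 (median 2477). Clusters were built from these same counts, so their differences are described and not tested. From cluster 2 to cluster 15, 5 of the 9 genes were higher in all 17 animals (3.25% of the 13993 genes tested in oligodendrocytes were), 3 were lower in all 17 (7.05% of genes were), and Hopx was mixed. All 9 genes had passed the filter on low counts in oligodendrocytes. The 13993 genes were not matched to the 9 for level, so the shares are not a like-for-like background. The median difference over the 9 genes was 0.34 (log2), beside −0.16 over all genes.

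Klk6 showed the widest range. Its level was 10.1 ± 4.50 CPM in cluster 2, 21.5 ± 8.82 in cluster 0 and 44.9 ± 17.9 in cluster 15 (SD, n = 17), in that order in every animal, a log2 difference of 2.08 ± 0.66 between the ends. Anln went the same way, from 376 ± 45.6 through 527 ± 68.4 to 613 ± 59.7 CPM, although cluster 15 passed cluster 0 in 14 of 17 animals. Apod (537 ± 87.8 to 710 ± 167 CPM), St18 (3960 ± 266 to 5025 ± 255) and Prr5l (2808 ± 201 to 3434 ± 201) were also higher in cluster 15 than in cluster 2 in each animal, by 0.38, 0.34 and 0.29 on the log2 scale. Hopx stood at 4.26 ± 2.35 and 6.76 ± 3.21 CPM, higher in cluster 15 in 13 of 17 animals, a difference within its spread.

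The secreted lipocalin synthase, the alarm cytokine and the carbonic anhydrase ran the other way. Ptgds stood at 2314 ± 751 CPM in cluster 2, 1725 ± 632 in cluster 0 and 1035 ± 352 in cluster 15, a log2 difference of −1.17 ± 0.20. Il33 was 593 ± 48.8, 517 ± 52.5 and 306 ± 46.5 CPM (−0.96 ± 0.21). Car2 was 1175 ± 145, 1059 ± 124 and 870 ± 126 CPM (−0.44 ± 0.10). Each was lower in cluster 15 than in cluster 2 in 17 of 17 animals. The differences kept their sign in each treatment group: for Klk6 the mean log2 difference was 2.01 ± 0.99 in saline (n = 4), 2.09 ± 0.24 with Malat1 ASO (n = 4), 2.22 ± 0.82 with anti-TfR:Malat1 (n = 6) and 1.85 ± 0.20 with OTV:Malat1 (n = 3), and for Ptgds −1.16 ± 0.15, −1.23 ± 0.29, −1.19 ± 0.22 and −1.04 ± 0.04.

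**Figure D1:**
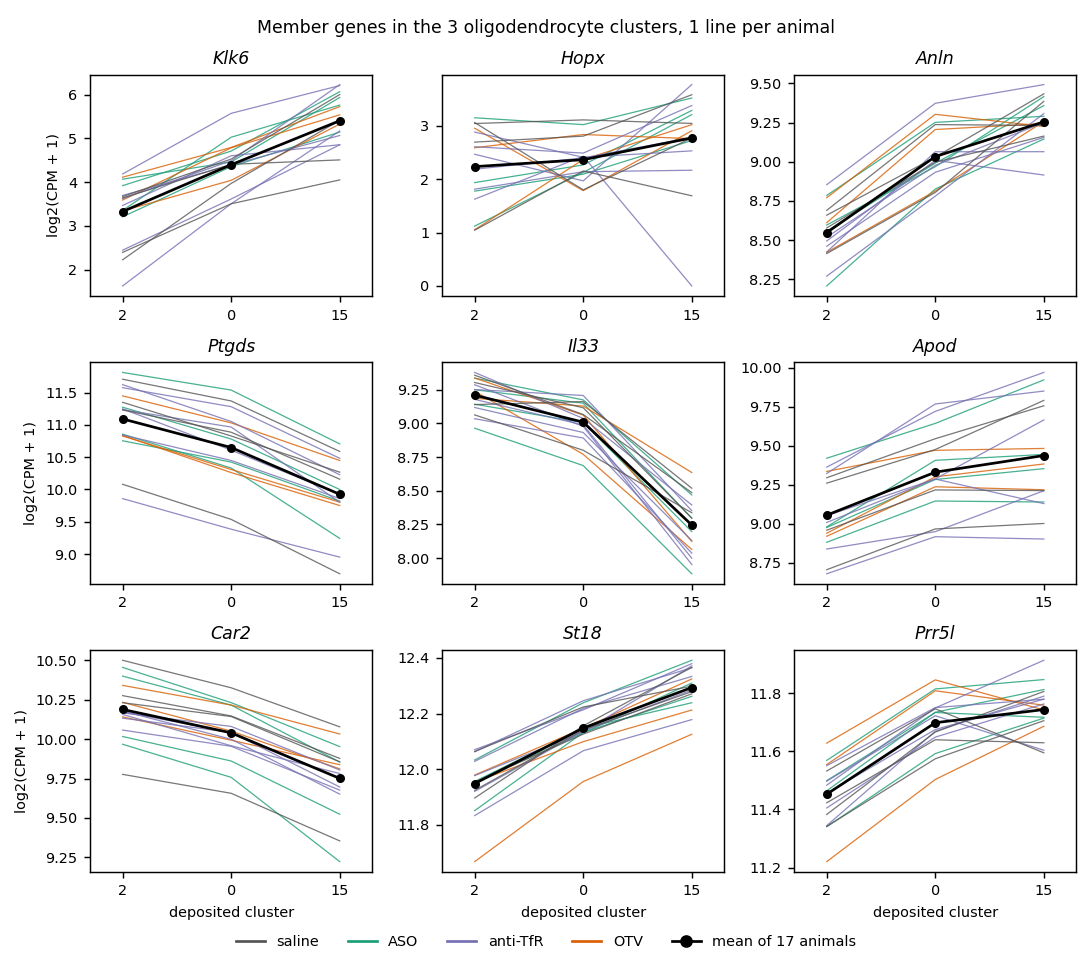
Level of each gene, as log2(CPM + 1), in oligodendrocyte clusters 2, 0 and 15, with 1 line per animal (17 animals). Klk6 lines climb from cluster 2 to cluster 15 and Ptgds, Il33 and Car2 lines descend, each in all 17 animals between the end clusters.

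Depth, doublets and free RNA differ between these clusters as well. The authors' doublet calls covered 29.7% of cluster 15, 1.39% of cluster 0 and 0.174% of cluster 2. Without those nuclei the ratio of cluster 15 to cluster 2 was 5.66 for Klk6, 1.83 for Anln, 1.45 for Apod, 0.725 for Car2, 0.411 for Il33 and 0.380 for Ptgds, in the same direction in all 17 animals. The neuronal RNA Meg3 (ratio 0.532 without doublets) and the choroid plexus RNA Ttr (0.484), which gauge RNA from other cells, were lower in cluster 15 than in cluster 2 in all 17 animals. Among nuclei of 1000 to 2000 UMIs, a range chosen after seeing the data, cluster 15 keeps 629 nuclei, with as few as 5 in an animal. The clusters share the limits of this range and not the depth within it, where cluster 15 nuclei were still the deeper ones. There the ratios were 3.86 for Klk6 (higher in 13 of 17 animals), 2.53 for Anln (17 of 17), 1.72 for Apod (17 of 17), 1.33 for Prr5l (16 of 17) and 1.14 for St18 (13 of 17). Ptgds stayed lower (0.459, in 17 of 17 animals), Il33 was 0.800 (higher in 2 of 17) and Car2 1.08 (higher in 9 of 17), so Car2 was not consistently lower in cluster 15 in this range. Hopx had 2 UMIs in those 629 nuclei and gives no ratio. Among nuclei of 2000 to 4000 UMIs, Il33 was 322 ± 128 CPM in cluster 0 and 312 ± 52.5 in cluster 15. Car2 was 761 ± 180 and 898 ± 122, the reverse of its order over all depths. Ptgds was 1458 ± 750 and 1067 ± 360, and Klk6 35.5 ± 28.6 and 48.0 ± 19.5. Cluster 0 had as few as 14 nuclei in an animal there. Among nuclei of 500 to 1000 UMIs, Il33 was 607 ± 268 CPM in cluster 0 and 604 ± 61.6 in cluster 2. Klk6 was 9.88 ± 25.3 and 9.76 ± 4.47 there, and Car2 1491 ± 393 and 1260 ± 171. Ptgds (1887 ± 935 and 2386 ± 755) and Anln (673 ± 379 and 415 ± 45.9) kept their order. Cluster 0 had as few as 3 such nuclei in an animal. Over all oligodendrocytes mean Il33 was lower in deeper nuclei, at 605, 541 and 315 CPM over these ranges. The part of depth, doublets and free RNA in the cluster differences was not tested beyond these values.

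Other oligodendrocyte genes also differed between these clusters. Of 12 myelin genes, 4 were higher in cluster 15 in all animals and none lower in all, among them Mobp (log2 difference 0.68 ± 0.08), Mbp (0.43 ± 0.08) and Ugt8a (0.28 ± 0.08). The rest were mixed. Mal (−0.25 ± 0.15) and Opalin (−0.21 ± 0.14) were each higher in 1 of 17 animals. Cldn11 was higher in 4, Cnp in 5, Ermn in 6, Gjb1 in 8, Mog in 15 and Mag in 16. Of 12 other mature genes, 7 were lower in every animal, among them the iron store subunit Fth1 (−0.79 ± 0.17), the kinase Sgk1 (−0.78 ± 0.25) and the chaperone Cryab (−0.72 ± 0.20), and 1 was higher, the actin-severing Gsn (0.68 ± 0.28). Of 6 tested genes of newly formed oligodendrocytes, Enpp6, a choline phosphodiesterase, was higher in all 17 animals (96.3 to 283 CPM, 1.54 ± 0.33), and none was lower in all 17. Of 9 transcription regulators, Olig1 was lower in all animals (−0.54 ± 0.32) and none higher. Around Prr5l, none of 7 tested mTORC2 genes differed in all animals, with the inhibitory subunit Deptor higher in 16 of 17 (25.6 to 59.6 CPM, 1.16 ± 0.51). Around Ptgds, 1 of 5 tested prostaglandin genes differed, Ptges3, lower in all 17 (−0.33 ± 0.22).

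Within clusters, some of the genes were seen in the same nuclei more often than expected and others less often. For each of the 36 pairs of genes, the number of nuclei with a UMI of both was set against the number expected had the genes been independent within each animal, cluster and depth bin (10 bins of UMI total). Klk6 and Il33 were seen together in 263 nuclei where 737 were expected, a ratio of 0.357. The ratio lay between 0.204 and 0.571 in single animals, below 1 in 17 of 17. Klk6 was instead seen with Anln in 1328 nuclei against 918 expected (ratio 1.45, 1.26 to 1.63 over animals) and with Apod in 1388 against 1106 (1.25, 1.07 to 1.58). Klk6 nuclei thus held Anln and Apod more often, and Il33 and Ptgds less often, than depth and cluster gave.

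Hopx joined the Klk6 side at low counts. Klk6 and Hopx met in 63 nuclei against 21.4 expected (2.95, above 1 in 14 of 17 animals), Hopx and Anln in 270 against 199 (1.36, above 1 in all 17), and Hopx and Il33 in 106 against 176 (0.603, below 1 in all 17). Klk6 and Ptgds met in 1115 nuclei against 1404 (0.794, below 1 in all 17). Among the more abundant genes the ratios were nearer 1: Anln and Il33 0.810, Anln and Ptgds 0.895, Anln and Apod 1.10, Il33 and Apod 0.927, Ptgds and Il33 1.09, each on 1 side of 1 in all 17 animals. Pairs with Car2, St18 or Prr5l lay close to 1; St18 and Prr5l were seen in most nuclei, which limits how far such a ratio can move.

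**Figure D2:**
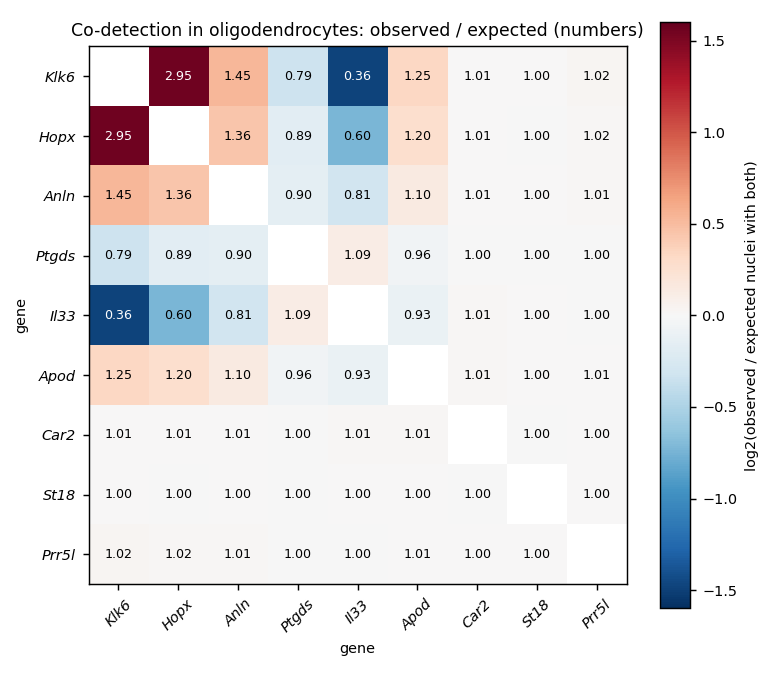
Observed over expected number of oligodendrocyte nuclei with a UMI of both genes, for the 36 pairs, with the expectation taken within animal, cluster and depth bin. The lowest cell is Klk6 with Il33 (0.357) and the highest is Klk6 with Hopx (2.95).

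The Klk6 and Il33 separation was present in each treatment group (0.341 in saline, 0.284 with Malat1 ASO, 0.346 with anti-TfR:Malat1, 0.485 with OTV:Malat1). It was 0.347 without the authors' doublets and 0.346 in nuclei of at least 1000 UMIs. Set against the listed oligodendrocyte genes, Klk6 was seen less often with Opalin, a myelin-cell surface glycoprotein (261 nuclei against 757, ratio 0.345, below 1 in all 17 animals), and with Qdpr, an enzyme of tetrahydrobiopterin recycling (0.694, none of 17 above 1). It was seen more often with Enpp6 (944 against 498, 1.90, above 1 in all 17) and Deptor (1.79, 16 of 17). Other genes of the same lists varied. Of the other myelin genes, Mal (0.761), Cnp (0.839) and Cldn11 (0.865) were below 1 with Klk6, Gjb1 (1.33, above 1 in 14 of 17 animals) was above, and the rest lay between 0.990 and 1.04. Of the 12 other listed mature genes, Qdpr included, 7 were below 1, down to Jph4 (0.560), and 5 were above, among them Gsn (1.26), S100b (1.51, above 1 in 16 of 17 animals) and Pmp22 (above 1 in 15 of 17). Of the other genes of newly formed cells, Bcas1 (0.933), Fyn (0.892), Gpr17 (0.880), Bcan (0.803) and Itpr2 (0.799) were below 1 with Klk6, and Bmp4 met it in 2 nuclei. Of the other mTORC2 genes, Mlst8 (1.34), Mapkap1 (1.24), Akt2 (1.20) and Mtor (1.15) were above 1, Rictor (0.857) and Akt1 (0.757) below, and Prr5 met it in 1 nucleus. With the genes named first, Il33 showed the reverse: 0.552 with Enpp6, 0.569 with Deptor and 1.18 with Opalin, each on 1 side of 1 in all animals. Anln lay on the Klk6 side (1.49 with Enpp6, 0.779 with Opalin), although Bcas1 (0.962), Fyn (0.901) and Itpr2 (0.866) were below 1 with Anln. Apod lay there more weakly (1.20 and 0.905), and Ptgds on the Il33 side (0.785 and 1.08). The myelin gene Mbp, which nearly every oligodendrocyte nucleus held, gave a ratio of 1.00 with Klk6.

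Across the 51 sums of animal by cluster, Klk6, Anln, Apod and Il33 sorted as they did within nuclei; other pairs did not always. These points share animals and the clusters' depth, so the correlations are descriptions. Klk6 went with Anln (Pearson r = 0.75, log2(CPM + 1), n = 51) and Apod (0.71) and against Il33 (−0.74). Ptgds went with Car2 (0.80) and Il33 (0.64), and against St18 (−0.73), although within nuclei its ratios with Car2 and St18 were close to 1. With Apod it had a correlation of 0.19 and a co-detection ratio below 1 (0.961). St18 and Prr5l went together (0.82). The closest other genes to Klk6 were Slc25a27 (0.86), Mob3b (0.85) and Gm40578 (0.85). Anln lay closest to Slco3a1 (0.93), Enpp6 (0.92) and Aven (0.91), and Il33 to C030029H02Rik (0.91), Pvt1 (0.88) and Cttnbp2 (0.87). Ptgds lay closest to Apoe (0.94), Aplp1 (0.92) and Hsp90ab1 (0.91), and Car2 to Csrp1 (0.91), Gm42413 (0.90) and Apoe (0.86). St18 lay closest to Nkain2 (0.94), Plekhg1 (0.91) and Pcdh9 (0.90), and Prr5l to Rps6ka5 (0.90), Ctnna3 (0.90) and Tmem117 (0.89). Enpp6, described above, was thus among the closest to Anln, and Apoe, a lipid transport protein, was named for both Ptgds and Car2. Among the closest to Apod were Dusp15 (0.78) and Sgms1 (0.76), and the closest to Hopx were Osbpl7 (0.58), Pmp22 (0.57) and Gm49289 (0.55).

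The spread between animals differed widely among the 9 genes. Over 17 animals the coefficient of variation in oligodendrocytes was 5.01% for Prr5l, 5.60% for St18, 7.92% for Il33, 9.11% for Anln and 10.4% for Car2, beside a median of 12.7% over the 9227 genes with at least 10 CPM. It was 19.4% for Apod, 31.7% for Ptgds, 36.1% for Hopx and 38.7% for Klk6; the 95th percentile over those genes was 31.7%. Hopx lies below 10 CPM and is not among those genes. Counting error alone would give 1.03% for Ptgds, 9.17% for Klk6 and 19.99% for Hopx.

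Klk6 in oligodendrocytes read 22.4, 30.5, 16.98 and 8.26 CPM in saline animals 1 to 4, and 32.7, 17.8, 25.7 and 22.6 in Malat1 ASO animals 1 to 4. The 6 anti-TfR:Malat1 animals ran from 10.3 to 38.2 CPM with a median of 18.8, and the OTV:Malat1 animals read 24.5, 29.2 and 14.1. The lowest animal (saline 4) and the highest (anti-TfR:Malat1 3) differed 4.62 times, and all groups overlapped. Ptgds read 1699, 2491, 2066 and 855 CPM in saline, and 2778, 1424, 1828 and 1505 with Malat1 ASO. The anti-TfR:Malat1 animals ran from 736 to 2418 CPM with a median of 1863, and the OTV:Malat1 animals read 1360, 2114 and 1508. Again the groups overlapped, with the lowest and the highest animal in different treatment groups. Il33, with a small spread, read 471 to 564 CPM in saline, 439 to 560 with Malat1 ASO, 445 to 550 with anti-TfR:Malat1 and 505 to 533 with OTV:Malat1. Anln read 466 to 543, 430 to 555, 436 to 592 and 456 to 533 CPM in the same order.

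**Figure D3:**
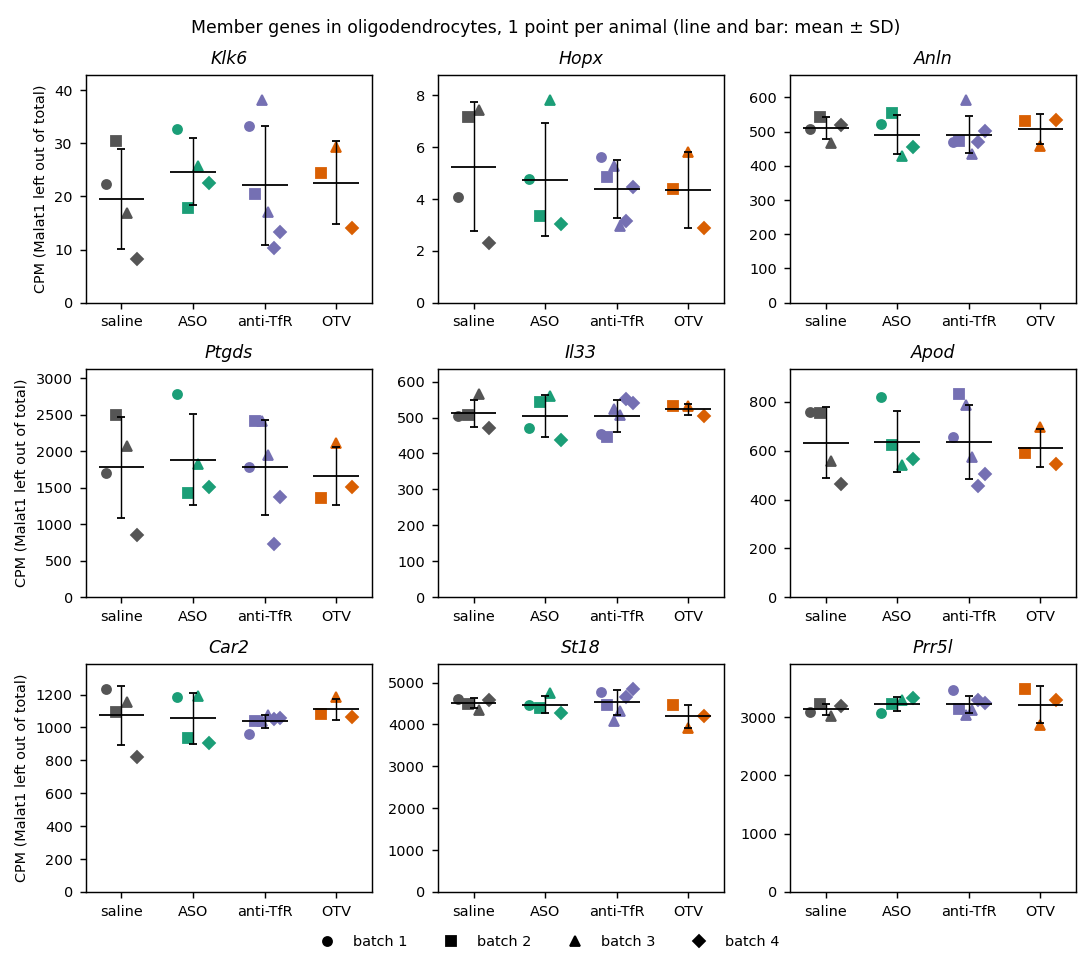
CPM of each gene in oligodendrocytes of each animal by treatment group, with the marker shape giving the batch and the bar the mean ± SD. Klk6, Ptgds and Hopx scatter most (over all animals 4.62, 3.78 and 3.41 times from lowest to highest), and the groups overlap for every gene.

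The levels also differed between batches. Mean Ptgds was 2085, 1923, 2075 and 1196 CPM in batches 1 to 4, Klk6 29.5, 23.4, 25.4 and 13.7, Apod 744, 699, 630 and 508, and Hopx 4.83, 4.93, 5.87 and 3.17. Batch 4 was lowest for these 4 genes. The share of cluster 2 among oligodendrocytes also moved between animals, from 18.0% to 62.2%. Group means of that share were 38.7% ± 18.6 in saline (n = 4), 43.1% ± 15.4 with Malat1 ASO (n = 4), 39.7% ± 15.4 with anti-TfR:Malat1 (n = 6) and 45.7% ± 13.99 with OTV:Malat1 (n = 3), closer together than the animals within any group.

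Ptgds moved between animals in other classes as well. It ranged 4.63 times over animals in microglia (290 to 1344 CPM) and 4.67 times in neurons (65.0 to 303 CPM), beside 3.78 times in oligodendrocytes. In cluster 13 nuclei, taken here as oligodendrocyte precursors although they carry the authors' neuron label, it ranged 5.39 times (128 to 693 CPM). Of the 3 animals with least Ptgds in oligodendrocytes, 2 were among the 3 lowest in each of these classes, and of the 3 animals with most, 1 was among the 3 highest in each. Its level in microglia was 41.7% of that in oligodendrocytes (29.0% to 63.6% over animals) and in neurons 9.11% (6.77% to 14.4%). For Klk6 the neuron level was 5.15% and the microglia level, on few UMIs, 24.0%. For Apod these were 4.98% and 21.3%. Apod also ranged 4.42 times over animals in microglia, 10.2 times in cluster 13 nuclei and 3.81 times in neurons. In each of these classes it too shared 2 of the 3 lowest and 1 of the 3 highest animals with oligodendrocytes, so this was not particular to Ptgds. RNA of Ptgds from outside the nucleus was not measured separately, and its part in these levels was not tested.

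**Figure D4:**
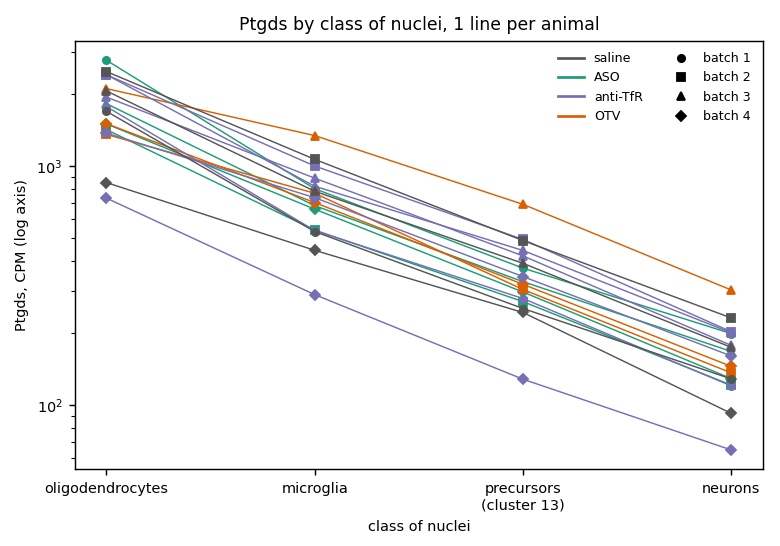
Ptgds CPM (log axis) by cell class, with 1 line per animal (17 animals). Of the classes drawn, oligodendrocytes lie highest (mean 1782 CPM), then microglia (743), cluster 13 nuclei taken as precursors (358) and neurons (162). The lines of single animals cross in places, with 1 of the 3 highest animals in oligodendrocytes among the 3 highest in microglia.

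The treatments are checked first by their target. Malat1 was 10.3% ± 1.74 of oligodendrocyte UMIs in saline (n = 4), 9.86% ± 2.12 with Malat1 ASO (n = 4), 6.94% ± 1.07 with anti-TfR:Malat1 (n = 6) and 1.40% ± 0.197 with OTV:Malat1 (n = 3). By edgeR's quasi-likelihood test with Benjamini-Hochberg adjustment it fell by 3.07 (log2, SE 0.20, adjusted p = 4.49e-08) with OTV:Malat1 against saline, in 3 of 3 animals below every saline animal. With anti-TfR:Malat1 it was −0.64 (95% interval −0.95 to −0.33; edgeR adjusted p = 1.00), which did not pass the threshold of 0.05. The interval is for Malat1 alone and lies below 0, while the p is adjusted over all genes tested. The missed threshold is thus not a sign of unchanged Malat1.

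None of the 9 genes passed in any comparison. With OTV:Malat1 against saline, 3 of 13993 genes did (0.0214%), all lower: Malat1, Slc35f2 and Saa3, the latter pair named after their values were seen. With DESeq2, or without OTV:Malat1 replicate 1 or replicate 3, 1 gene passed in place of 3, and with the batch or the replicate number as a block 2 did. With anti-TfR:Malat1 against saline and with Malat1 ASO against saline no gene did (0%), and with OTV:Malat1 against anti-TfR:Malat1 only Malat1 did (0.00715%). At an unadjusted edgeR p under 0.05 there were 384, 248, 112 and 369 genes of the 13993 in these 4 comparisons, and 0 of the 9. With a batch block there were 470, 334, 179 and 607 genes. Each count lay below the share of 0.05 that no difference at all would give, so 0 of the 9 says little. DESeq2 also called 0 of the 9. The median difference over the 9 was −0.06, −0.01, −0.01 and −0.03 (log2), beside 0.01, −0.01, 0.00 and 0.02 over all genes. The 3 comparisons with saline share the same 4 control animals.

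The intervals are for single genes and are not adjusted for the number of genes tested. They do not give the smallest change that would have passed the adjusted threshold. With OTV:Malat1 against saline, Prr5l differed by −0.01 (95% interval −0.21 to 0.18, log2), Il33 by −0.02 (−0.22 to 0.18), Car2 by −0.01 (−0.24 to 0.22) and Anln by −0.06 (−0.30 to 0.18). For Prr5l, Il33 and Car2 the mean CPM was slightly higher with OTV:Malat1 than in saline (3214 and 3135, 523 and 511, 1110 and 1075), so the sign of these small differences turns with the scaling; edgeR's fit uses TMM. St18 differed by −0.16 (−0.35 to 0.04), with 4467, 3908 and 4207 CPM in OTV:Malat1 animals and 4598, 4498, 4341 and 4591 in saline; these overlap (edgeR adjusted p = 0.967). Expressed as percent of the saline level, the intervals of these 5 genes lay between −21.4% (St18) and 16.6% (Car2). For Apod the interval was −0.52 to 0.30, for Ptgds −0.85 to 0.55, for Klk6 −0.69 to 0.98 and for Hopx −1.05 to 0.48. The intervals of these 4 were wider than those of the 5 genes before them. That of Klk6 runs from −38.0% to 97.5%.

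With anti-TfR:Malat1 against saline the 9 differences ran from −0.26 (Hopx) to 0.13 (Klk6), and with Malat1 ASO against saline from −0.14 (Hopx) to 0.32 (Klk6, 95% interval −0.46 to 1.09). With OTV:Malat1 against anti-TfR:Malat1 they ran from −0.15 (St18, −0.33 to 0.03) to 0.06 (Car2). No gene of the 9 had groups that did not overlap in any of the 4 comparisons. Over all genes tested, 2.85% lay wholly higher and 1.25% wholly lower with OTV:Malat1 than in saline, 0.136% and 0.186% with anti-TfR:Malat1, 0.457% and 0.443% with Malat1 ASO, and 1.07% and 0.472% with OTV:Malat1 against anti-TfR:Malat1, so 0 of 9 is near the background. Within the 3 batches that hold both groups, St18 was lower with OTV:Malat1 in each: 4467 and 4498 CPM in OTV:Malat1 and saline animals in batch 2, 3908 and 4341 in batch 3, and 4207 and 4591 in batch 4. These CPM leave Malat1 out of the total; with Malat1 in it the order of the means turned, to 4135 CPM of St18 with OTV:Malat1 and 4042 in saline. Each of these batches held 1 animal of either group. St18 had the smallest unadjusted edgeR p of the 9 against saline (0.104). The share of all genes lower in every batch was not counted, so no consistent fall is read from this. Ptgds and Klk6 were mixed. Ptgds in OTV:Malat1 and saline animals read 1360 and 2491 CPM in batch 2, 2114 and 2066 in batch 3, and 1508 and 855 in batch 4. Klk6 read 24.5 and 30.5, 29.2 and 16.98, and 14.1 and 8.26 in the same batches.

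**Figure D5:**
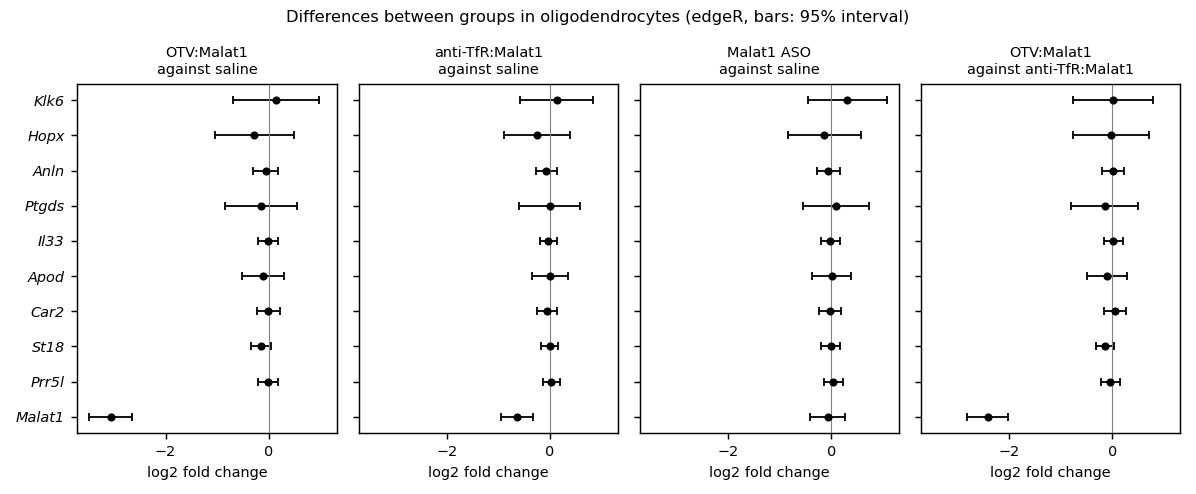
Log2 fold change from edgeR with its 95% interval for the 9 genes and Malat1 in 4 comparisons in oligodendrocytes. All 36 intervals of the 9 genes cross 0, while Malat1 lies at −3.07 with OTV:Malat1 against saline.

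Within single clusters the result was the same count. In cluster 0, 0 of 9 genes passed beside 0.00777% of 12874 genes, in cluster 2, 0 of 9 beside 0.0087% of 11497, and in cluster 15, 0 of 8 beside 0.0109% of 9184, with Hopx there too low to test; each percentage is Malat1 alone, in both OTV:Malat1 comparisons. DESeq2 called 0 in each. The only unadjusted edgeR p under 0.05 was Il33 in cluster 15 with anti-TfR:Malat1 against saline (−0.25, 95% interval −0.49 to −0.01; adjusted p = 1.00). Whether the clusters differ in their response was not tested.

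The related gene lists held no call either. None of the 12 myelin genes, 9 transcription regulators, 6 tested genes of newly formed cells, 12 other mature genes, 7 mTORC2 genes or 5 prostaglandin genes passed in any comparison. The myelin median was −0.10 with OTV:Malat1, −0.10 with anti-TfR:Malat1 and −0.01 with Malat1 ASO against saline. At an unadjusted edgeR p under 0.05 the lists held Ptgs2, the inducible cyclooxygenase upstream of Ptgds (−1.27 with OTV:Malat1 against saline, adjusted p = 0.967; −1.20 against anti-TfR:Malat1, adjusted p = 0.993). They also held Rictor, the defining mTORC2 subunit (−0.25 with OTV:Malat1 against anti-TfR:Malat1, adjusted p = 0.993). Ptgs2 averaged 1.48 CPM in oligodendrocytes.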

How the data were processed

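The authors deposited raw UMI counts per gene and nucleus with a metadata table of labels, clusters and doublet calls; the submitters' processing notes name Cell Ranger 6.0.1, Seurat 4 and mm10 without saying which step each did. Doublets stayed in, with values without them as an alternative; 13 metadata columns were not used. Counts were summed per animal over oligodendrocytes (or 1 cluster). CPM leaves Malat1 out of the total, a choice made after seeing the data. Tests were edgeR 4.0.16 quasi-likelihood fits over all 17 animals (filterByExpr, TMM, two-sided, Benjamini-Hochberg over all genes, threshold 0.05), checked on simulated data; DESeq2 1.42.0 was an alternative. The simulated animals held no batch differences, so that check does not cover the batches of these data. Shares were thinned to 500 UMIs a nucleus. Cluster, co-detection and likeness values carry no test. Genes named were the 9, Malat1, listed genes past the threshold, and for each of the 9 the 3 genes with the most similar levels; other genes were named after their values were seen. The 9 genes and all lists were chosen with earlier results of these data known. One listed gene, Tmem2, is not in the table used here. Same-numbered animals deviated together (correlation over 0.1) in 12 of 21 pairs, same-batch animals in 20 of 27, so replicate numbers were not taken as pairs. The fits and intervals given hold no batch term. With a batch block, the log2 differences of the 9 genes in oligodendrocytes shifted by at most 0.162. Values of 1 other gene that these rules name are not reported here.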

Additional observations from a re-analysis of the deposited data

Results flagged for a closer look

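In 108 groups of 4 to 6 animals, 5 values lay far from the rest of their group by Dixon's criterion, or 4.63%; chance flags about 1 group in 20. Klk6 in cluster 0 was 46.6 CPM in anti-TfR:Malat1 replicate 3 (101 UMIs, batch 3), with the other 5 animals at 10.3 to 23.3. Hopx in cluster 0 was 7.12 CPM in Malat1 ASO replicate 3 (21 UMIs), with the others at 3.27 to 3.81. St18 in cluster 0 was 4831 CPM in the same Malat1 ASO replicate 3, with the others at 4482 to 4534. Apod in cluster 2 was 684 CPM in Malat1 ASO replicate 1, with the others at 470 to 504. Car2 in oligodendrocytes was 958 CPM in anti-TfR:Malat1 replicate 1, with the others at 1037 to 1074.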

How the results depend on the processing

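No gene of the 9 was called in any of the 212 alternative counts, which covered DESeq2, other size factors, no filter, Malat1 left out, only the groups compared, a batch block, no doublets, deeper nuclei and each animal left out in turn. With the replicate number as a block (replicate block) 0 of the 9 were called in each comparison; the largest shift of a log2 difference among 972 alternative values was 0.466, for Klk6 under that block with OTV:Malat1 against anti-TfR:Malat1. Of these values 5 had an unadjusted p under 0.05, and the smallest adjusted p was 0.792 (St18 without saline replicate 3, OTV:Malat1 against saline). Over all genes, OTV:Malat1 against saline gave 3 calls. It gave 1 with DESeq2, with Malat1 left out, with only the groups compared, and without OTV:Malat1 replicate 1 or 3, and 2 with the batch block, the replicate block, no filter, no doublets or deeper nuclei. Leaving out other animals gave 2 to 4. OTV:Malat1 against anti-TfR:Malat1 gave 1 call, and 0 with Malat1 left out. All 72 alternative co-detection ratios moved by less than the spread between animals or, for pairs with few nuclei, the counting interval. Thinned to 1000 UMIs, which leaves out 3613 of 17769 saline and 5387 of 13782 OTV:Malat1 oligodendrocytes, every share was higher (Klk6 1.86%, St18 95.8%). With Malat1 in the CPM total, tried after seeing the data, mean levels were 0.893 to 0.897 of those given in saline and 0.986 in OTV:Malat1, and 9 of 36 group means moved by more than 1 SD. This turned the order of the OTV:Malat1 and saline means from lower to higher with OTV:Malat1 for St18 (4135 and 4042 CPM), Anln (499 and 457), Apod (602 and 566) and Ptgds (1637 and 1589). Klk6 and Hopx, at 36 to 222 and 10 to 52 UMIs an animal, had the largest counting error of the 9 genes. It was 9.17% and 19.99%, beside coefficients of variation of 38.7% and 36.1%.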

Other observations

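Some nuclei belonged to no comparison above. In the 3 oligodendrocyte clusters, 6278 nuclei carried the authors' neuron label. Their mean levels were 557 ± 111 CPM for Il33 (SD, n = 17; 508 in labelled oligodendrocytes) and 1737 ± 625 for Ptgds (1782). Means were lower for St18 (3461 ± 499 against 4449), Prr5l (2308 ± 303 against 3201), Car2 (761 ± 113 against 1063) and Hopx (3.36 ± 3.73 against 4.67). They were lowest relative to labelled oligodendrocytes for Apod (305 ± 50.3 against 631), Anln (137 ± 27.0 against 498) and Klk6 (3.56 ± 3.55 against 22.2). The oligodendrocyte label covered 83.4% of cluster 2, 98.8% of cluster 0 and 99.6% of cluster 15, so these contrasts also mix clusters. Labelled nuclei of cluster 2 alone had means of 593 CPM for Il33, 2314 for Ptgds, 3960 for St18 and 2808 for Prr5l. They had 1175 CPM for Car2, 537 for Apod, 376 for Anln, 10.1 for Klk6 and 4.26 for Hopx. Each of these means lay above that of the neuron-labelled nuclei. Another 2126 nuclei carried the oligodendrocyte label in other clusters, at 2643 ± 230 CPM for St18, 592 ± 151 for Prr5l, 75.1 ± 24.7 for Il33 and 8.68 ± 4.24 for Klk6.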
